A study of Mus musculus with 12 samples.

Results

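The transcription factor p53 (gene *Trp53*) and 9 of the genes it is known to activate under stress were followed in C2C12 cells, a myoblast line from the muscle of C3H mice, with and without silencing of *Bach1*. The members are *Trp53*, *Mdm2*, *Ccng1*, *Bax*, *Bbc3*, *Gadd45a*, *Sesn1*, *Sesn2*, *Phlda3* and *Btg2*, chosen by name, and every probe of the array with one of these gene symbols was taken. These are 10 of the 27306 genes named on the array and gave 14 of its 56605 probes, 1 for each gene except *Mdm2*, *Bax*, *Gadd45a* and *Btg2*, which have 2 each. All 14 passed the filter on dim probes, which kept 29664 probes. To pass it, a probe had to exceed background clearly in each of the 3 replicates of any condition.

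Cells were transfected with a negative control siRNA (siControl) or with siBach1-2, a single siRNA sequence against *Bach1*, and RNA was taken at day 0, when the confluent cultures were still undifferentiated, or at day 2, after 2 days in medium with horse serum, in which myoblasts leave the cell cycle and fuse into myotubes. Each of the 4 conditions had 3 replicates, and each RNA sample was labelled with Cyanine 3 and hybridized to 1 one-colour mouse array, 12 arrays in all. All groups are transfected cells of the same line, and *Bach1* was silenced and not deleted. With a single sequence on the arrays, effects of that sequence on other genes and effects of lower *Bach1* cannot be told apart. The labels do not say that replicates came from separate cultures, so p-values measure the spread between these samples, which may be technical, and 3 arrays per condition limit the precision of every value.

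In an unstressed cell the p53 protein is made and quickly destroyed, because Mdm2, a ubiquitin ligase that p53 itself induces, marks it for the proteasome. After DNA damage or oxidative stress p53 accumulates as a tetramer, binds paired half-sites near its target genes and induces genes for cell cycle arrest, DNA repair, antioxidant defence and cell death. Bach1 is a haem-sensing repressor that binds antioxidant response elements together with small Maf proteins, and it has also been described together with p53 and the histone deacetylase Hdac1 on promoters of p53 target genes. The amount of *Trp53* RNA is only a small part of this system, since p53 is controlled mainly through its protein, which was not measured on these arrays.

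Values below are log2 signals relative to the 75th percentile of the same array, given in the order of replicates 1, 2 and 3, and differences are log2 fold changes. A probe passed where limma's adjusted p, after Benjamini-Hochberg correction over all 29664 probes, was under 0.05. Levels of different probes are not set against each other, since probes bind with different strength.

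The silencing was checked first. *Bach1* was lower in siBach1-2 cells by 1.77 at day 0 and by 1.97 at day 2 on the log2 scale (log2 fold changes of -1.77 and -1.97, adjusted p = 1.2e-05 and 1.4e-05). *Hmox1*, which encodes haem oxygenase and is the best known target of Bach1, rose by 3.30 and 3.12 on its tested probe. Its other probe was well above background on 2 of 12 arrays and was not tested. Markers of myoblasts and myotubes were present, with 5 of 6 and 7 of 7 genes well above background on all arrays. Of 4 endothelial markers none was above background on all arrays and *Cdh5*, *Kdr* and *Tek* on none. Of 4 fibroblast markers *Pdgfra* and *Dcn* were above background on all arrays and *Thy1* on none, of 4 adipocyte markers *Lep* on all and *Adipoq* on none, and of 4 macrophage markers *Ptprc*, *Cd68* and *Csf1r* on all and *Adgre1* on none. The summed linear signal of the 7 myotube markers was 36.0 to 54.0 in siControl and 31.9 to 47.0 in siBach1-2 arrays at day 0, against 1244 to 1338 and 795 to 966 at day 2. That of 4 proliferation markers (*Mki67*, *Top2a*, *Ccnb1*, *Cdk1*) was 103 to 114 and 89.6 to 91.6 at day 0 against 18.8 to 35.9 and 19.9 to 24.5 at day 2. The summed fibroblast markers were 1.570 to 2.70 and 1.10 to 1.566 at day 0 and 52.7 to 71.1 and 44.4 to 48.0 at day 2. The 6 myoblast markers summed to 101 to 110 and 127 to 132 at day 0 and to 181 to 200 and 157 to 176 at day 2, and the macrophage markers to 7.02 to 7.99 and 8.13 to 8.94 at day 0 and to 4.93 to 7.22 and 4.66 to 7.43 at day 2. The myotube, proliferation, fibroblast and myoblast sums thus moved with the day. Between the siRNAs, the myoblast and macrophage sums were higher and the proliferation and fibroblast sums lower with siBach1-2 at day 0, and the myoblast, myotube and fibroblast sums lower at day 2, all without overlap. Bright genes weigh most in such linear sums, and not every gene moved with its sum. With siBach1-2, the log2 means of *Pax7*, *Des*, *Cd68* and *Lum* went against these differences at day 0. Those of *Myf5*, *Pdgfra* and *Thy1* did so at day 2. In siControl cells *Myf5*, *Pax7* and *Vcam1* fell with the day while the myoblast sum rose. The part of these sums in the values below was not tested. In these bulk samples fewer cells of a kind and less RNA per cell cannot be told apart.

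The promoters of some members are shown because p53 can bind there, as well as in introns and further away. Windows from 250 bases before to 50 bases after each annotated start were taken from RefSeq (mouse assembly GRCm38.p6), and all 10 genes were found, with 13 windows. The p53 half-site was searched by its name on both strands, together with the core of the antioxidant response element, TGACNNNGC, also on both strands. Half-sites were found in 6 of the 13 member windows, 1 each for 6 of the 10 genes (*Trp53*, *Mdm2*, *Ccng1*, *Bax*, *Gadd45a* and *Sesn1*), against 8.36% of all 32851 windows of the same length. The antioxidant core was found in 2 member windows, those of *Trp53* and *Sesn2*, against 12.4% of all windows. In the sequences of *Sesn1*, *Trp53*, *Mdm2* and *Gadd45a*, written 5′ to 3′ on the strand of the gene, capitals mark the matches. *Trp53* has 2, the antioxidant core at position 129, counted from 1 at the 5′ end, and the half-site at position 176, which do not overlap. *Sesn1* has 2 starts, of which only the downstream one holds a match, at position 78, while the match lies at position 65 in *Mdm2* and at position 211 in *Gadd45a*. A match is a description of the letters and not evidence of binding.
Sesn1, first start, chr10:41810324-41810623, plus strand: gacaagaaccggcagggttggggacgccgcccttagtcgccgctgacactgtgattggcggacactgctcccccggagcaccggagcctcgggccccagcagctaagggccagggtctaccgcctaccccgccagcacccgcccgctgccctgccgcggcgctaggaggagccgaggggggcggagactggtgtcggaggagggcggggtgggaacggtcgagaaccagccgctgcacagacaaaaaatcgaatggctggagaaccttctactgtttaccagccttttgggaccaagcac
Sesn1, second start, chr10:41887189-41887488, plus strand: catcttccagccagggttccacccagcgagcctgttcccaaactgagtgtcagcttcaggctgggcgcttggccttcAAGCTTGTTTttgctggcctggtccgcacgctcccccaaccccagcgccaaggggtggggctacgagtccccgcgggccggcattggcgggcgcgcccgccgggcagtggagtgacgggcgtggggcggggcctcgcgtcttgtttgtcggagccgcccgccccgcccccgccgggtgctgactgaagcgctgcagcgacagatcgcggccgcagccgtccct
Trp53, chr11:69580109-69580408, plus strand: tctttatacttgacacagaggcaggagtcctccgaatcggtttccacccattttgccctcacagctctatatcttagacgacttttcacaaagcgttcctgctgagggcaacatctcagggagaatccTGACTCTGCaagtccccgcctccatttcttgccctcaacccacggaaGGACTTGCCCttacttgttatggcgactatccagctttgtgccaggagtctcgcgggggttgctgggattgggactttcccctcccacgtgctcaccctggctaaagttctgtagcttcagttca
Mdm2, chr10:117710709-117711008, minus strand: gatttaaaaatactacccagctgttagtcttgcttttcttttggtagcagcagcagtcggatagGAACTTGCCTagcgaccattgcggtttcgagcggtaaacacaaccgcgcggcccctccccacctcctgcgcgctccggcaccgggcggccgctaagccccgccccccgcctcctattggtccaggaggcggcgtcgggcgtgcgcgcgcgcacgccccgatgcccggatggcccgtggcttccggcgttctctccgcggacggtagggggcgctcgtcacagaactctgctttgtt
Gadd45a, chr6:67037358-67037657, minus strand: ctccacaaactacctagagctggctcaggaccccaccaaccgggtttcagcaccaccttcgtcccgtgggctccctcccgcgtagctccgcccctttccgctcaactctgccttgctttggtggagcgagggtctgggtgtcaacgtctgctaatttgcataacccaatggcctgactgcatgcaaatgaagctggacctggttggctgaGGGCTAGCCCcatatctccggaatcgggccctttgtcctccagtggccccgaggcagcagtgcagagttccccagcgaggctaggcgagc

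*Trp53* itself, on its single probe, had signals of 3.25, 3.50 and 3.10 in siControl and 2.93, 3.33 and 3.05 in siBach1-2 cells at day 0. At day 2 they were 2.45, 2.24 and 2.27 in siControl and 1.75, 2.05 and 1.75 in siBach1-2 cells. The 2 siRNAs overlapped at day 0 and did not overlap at day 2, where the highest siBach1-2 array was below the lowest siControl array. From day 0 to day 2 *Trp53* fell by 0.96 in siControl cells (adjusted p = 0.0002) and by 1.26 in siBach1-2 cells (adjusted p = 3e-05). The siBach1-2 effect was -0.18 at day 0 (95% interval -0.49 to 0.13, adjusted p = 0.43) and -0.47 at day 2 (-0.79 to -0.16, adjusted p = 0.057). With the replicate number as a block in the fit, the difference at day 2 passed (adjusted p = 0.023). It was -0.44 on the first slide and -0.53 on the second. In order of level the conditions thus ran from siControl day 0 through siBach1-2 day 0 and siControl day 2 to siBach1-2 day 2, with the siRNAs at each day not separated by the test without the block.

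*Mdm2*, the ligase that removes p53 and is itself a p53 target, had 2 probes, on both of which the siBach1-2 arrays at day 2 were the higher ones. The brighter probe gave 4.98, 4.91 and 5.18 in siControl and 5.20, 5.12 and 5.40 with siBach1-2 at day 0, and 4.62, 4.55 and 4.64 against 4.96, 4.84 and 4.80 at day 2. The dimmer probe gave -1.22, -1.18 and -0.92 against -0.97, -0.97 and -0.47 at day 0, and -1.38, -1.59 and -1.30 against -1.03, -0.91 and -0.98 at day 2. On both probes the lowest siBach1-2 array at day 2 exceeded the highest siControl array, while the siRNAs overlapped at day 0. The differences at day 2 were 0.26 (95% interval 0.04 to 0.49, adjusted p = 0.12) and 0.45 (0.12 to 0.77, adjusted p = 0.075), neither of which passed; the dimmer probe passed with the replicate block (adjusted p = 0.026), and the brighter one under quantile normalization (0.38, adjusted p = 0.023). From day 0 to day 2 the brighter probe fell by 0.42 in siControl cells (adjusted p = 0.0048) and by 0.37 in siBach1-2 cells (adjusted p = 0.0091). The latter was -0.07 under quantile normalization (adjusted p = 0.55). The dimmer probe had -0.31 (adjusted p = 0.096; 0.038 with the block) and -0.17 (adjusted p = 0.35).

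*Ccng1* encodes cyclin G1, another p53 target that acts back on the p53 and Mdm2 loop. It had 3.89, 3.79 and 3.86 in siControl and 3.71, 3.55 and 3.85 with siBach1-2 at day 0, and 2.97, 2.91 and 3.34 against 3.33, 3.38 and 3.57 at day 2. *Ccng1* fell by 0.77 with the day in siControl cells (adjusted p = 0.00046), while in siBach1-2 cells the difference was -0.28 (adjusted p = 0.088; 0.022 with the block). The siBach1-2 effect was -0.14 at day 0 (adjusted p = 0.50) and 0.35 at day 2 (95% interval 0.07 to 0.63, adjusted p = 0.11), where one siControl array, replicate 3 at 3.34, reached above the lowest siBach1-2 array. The difference at day 2 passed with the block (adjusted p = 0.026), and without that array it was 0.49 (adjusted p = 0.035). The difference between the effects at the 2 days was 0.49 (adjusted p = 0.15; 0.039 with the block).

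**Figure D1:**
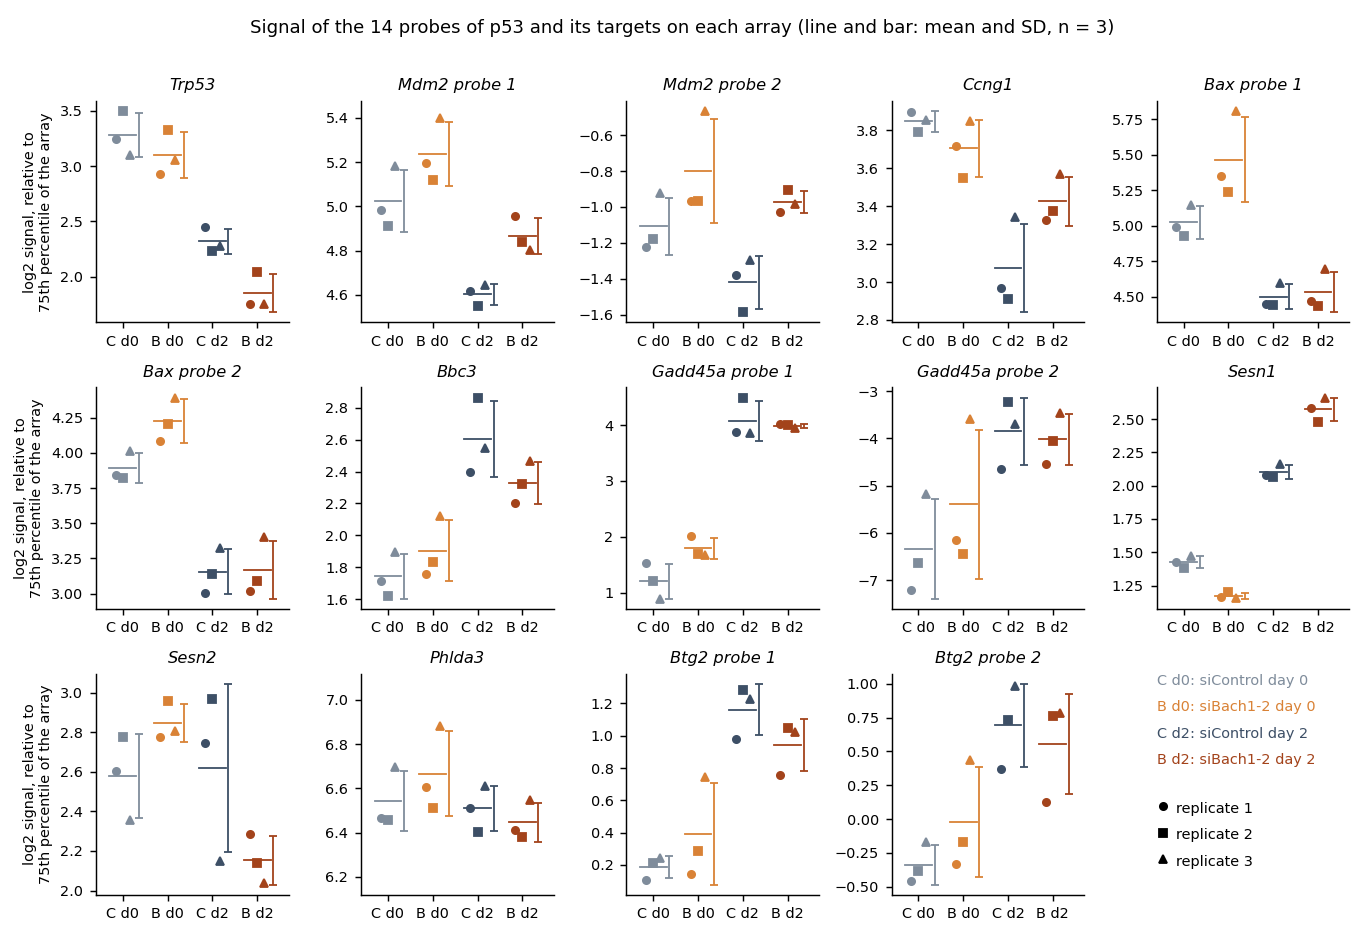
Signal of each of the 14 probes on the 12 arrays (y axis, log2 signal relative to the 75th percentile of the array; each panel has its own range), by condition on the x axis (C siControl, B siBach1-2, d0 and d2 the days), with a symbol for each replicate number, a line at the mean and a bar of 1 SD (n = 3). *Sesn1* is lower in siBach1-2 than in siControl cells at day 0 and higher at day 2, *Trp53* falls with the day under both siRNAs, and *Gadd45a* rises.

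Among the cell death genes, *Bax*, which opens the outer mitochondrial membrane, has 2 probes. The brighter gave 5.00, 4.93 and 5.15 in siControl and 5.35, 5.24 and 5.81 with siBach1-2 at day 0, and 4.45, 4.45 and 4.60 against 4.47, 4.44 and 4.70 at day 2. The other gave 3.84, 3.82 and 4.02 against 4.08, 4.21 and 4.39 at day 0, and 3.004, 3.14 and 3.32 against 3.02, 3.09 and 3.40 at day 2. Both probes were above siControl on all 3 siBach1-2 arrays at day 0 and overlapped at day 2. The effects at day 0 were 0.44 (95% interval 0.12 to 0.76, adjusted p = 0.062) and 0.34 (0.04 to 0.63, adjusted p = 0.11), which did not pass, but did with the block (adjusted p = 0.0072 and 0.0065). Without siBach1-2 replicate 3, at 5.81 the highest array, the brighter probe had 0.27 (adjusted p = 0.16). Without siBach1-2 replicate 2 of day 0 it had 0.56 (adjusted p = 0.038). That was the only 1 of 12 fits leaving out 1 array in which this probe passed at day 0. At day 2 they were 0.04 (-0.29 to 0.36) and 0.01 (-0.28 to 0.30). The difference between days was not shown on either probe (-0.41 and -0.32, adjusted p = 0.28 and 0.35). *Bax* fell from day 0 to day 2 on both probes, by 0.52 and 0.74 in siControl and by 0.93 and 1.06 in siBach1-2 cells, with adjusted p of at most 0.011.

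*Bbc3* encodes Puma, a BH3-only protein that frees Bax and its relatives from inhibition, and its changes with the day ran opposite to those of *Bax*. It had 1.71, 1.62 and 1.90 in siControl and 1.76, 1.83 and 2.12 with siBach1-2 at day 0, and 2.40, 2.87 and 2.55 against 2.20, 2.32 and 2.47 at day 2. It rose with the day by 0.86 in siControl cells (adjusted p = 0.00051) and by 0.43 in siBach1-2 cells (adjusted p = 0.027). The siRNAs overlapped at both days, with effects of 0.16 (adjusted p = 0.51) and -0.27 (95% interval -0.60 to 0.05, adjusted p = 0.25).

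*Gadd45a*, a nuclear protein of the growth arrest and DNA repair response, changed most with the day. Its brighter probe gave 1.52, 1.21 and 0.89 in siControl and 2.01, 1.69 and 1.67 with siBach1-2 at day 0, and 3.89, 4.50 and 3.86 against 4.01, 3.99 and 3.94 at day 2. It rose by 2.87, or 7.33-fold, in siControl cells (SE 0.20, adjusted p = 1.1e-06) and by 2.19, or 4.57-fold, in siBach1-2 cells (adjusted p = 6.1e-06). At day 0 the siRNAs did not overlap, with siBach1-2 higher by 0.59 on average (95% interval 0.15 to 1.02), with an adjusted p of 0.068 that became 0.041 with the block. At day 2 the difference was -0.10 (-0.53 to 0.34). The difference between days of -0.68 did not pass (adjusted p = 0.19). The second probe was dim, with -7.21, -6.63 and -5.18 in siControl and -6.15, -6.45 and -3.60 with siBach1-2 at day 0, and -4.64, -3.23 and -3.69 against -4.55, -4.06 and -3.46 at day 2. It was well above background on no siControl array at day 0, on 1 siBach1-2 array at day 0, on all 3 siControl arrays at day 2 and on 2 siBach1-2 arrays at day 2. In siControl cells it was at least 1.73-fold higher at day 2 than at day 0 (measured means -3.85 and -6.34, adjusted p = 0.018), where the dim side was set at the higher of the probe's own signal and the lowest signal of any probe well above background on each array. In siBach1-2 cells the second probe had 1.38 with the day (adjusted p = 0.15, and 0.039 with the block).

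*Btg2*, an antiproliferative protein, also rose with the day. Its first probe had 0.11, 0.21 and 0.24 in siControl and 0.14, 0.29 and 0.75 with siBach1-2 at day 0, and 0.98, 1.28 and 1.22 against 0.76, 1.05 and 1.02 at day 2. It rose by 0.97 (adjusted p = 0.00035) and by 0.55 (adjusted p = 0.011) with the day under siControl and siBach1-2. The second probe had -0.46, -0.38 and -0.17 against -0.33, -0.17 and 0.43 at day 0, and 0.37, 0.73 and 0.98 against 0.13, 0.76 and 0.78 at day 2. It rose by 1.03 in siControl cells (adjusted p = 0.0043) and had 0.58 in siBach1-2 cells (adjusted p = 0.063; 0.0037 with the block). Neither probe separated the siRNAs: the effects were 0.20 and 0.31 at day 0 and -0.22 and -0.14 at day 2, with adjusted p of at least 0.41. The high array at day 0 was siBach1-2 replicate 3 on both probes.

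*Phlda3*, which competes with Akt for membrane lipids and so restrains Akt, was the member with the smallest range of condition means. Its signals were 6.47, 6.46 and 6.70 in siControl and 6.60, 6.51 and 6.88 with siBach1-2 at day 0, and 6.51, 6.40 and 6.61 against 6.41, 6.38 and 6.55 at day 2. The groups overlapped in every comparison and none passed, the largest estimate being -0.22 from day 0 to day 2 in siBach1-2 cells (95% interval -0.48 to 0.04, adjusted p = 0.13). With the block this one passed (adjusted p = 0.015), and under quantile normalization it turned to 0.17.

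*Sesn1* was the member whose siRNA effect passed at both days and with opposite signs. *Sesn1* and *Sesn2* encode stress-induced proteins that lower mTORC1 activity and support the recycling of peroxiredoxins. *Sesn1* had 1.43, 1.38 and 1.47 in siControl and 1.16, 1.20 and 1.16 with siBach1-2 at day 0, and 2.08, 2.07 and 2.16 against 2.58, 2.48 and 2.66 at day 2. All 3 siBach1-2 arrays were below siControl at day 0 and above it at day 2. The siBach1-2 effect on *Sesn1* was -0.25 at day 0 (95% interval -0.41 to -0.09, 1.19-fold, adjusted p = 0.039) and 0.47 at day 2 (0.31 to 0.63, 1.39-fold, adjusted p = 0.0033). These were -0.22 and -0.31 on the first and second slide at day 0, and 0.46 and 0.50 at day 2. The difference between the effects at the 2 days was 0.72 (SE 0.10, adjusted p = 0.0089), the only one among the members to pass. With the day *Sesn1* rose by 0.67 in siControl cells and by 1.40, or 2.64-fold, in siBach1-2 cells (adjusted p = 2.4e-05 and 2.2e-07). The fall at day 0 was close to the threshold: it passed in 4 of 12 fits that each left out 1 array (adjusted p from 0.040 to 0.11), whereas the rise at day 2 and the difference between days passed in all 12. The call at day 0 was also lost with normexp background correction (-0.23, adjusted p = 0.065), and on the first slide alone, or without the filter on dim probes, neither it nor the difference between days passed.

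*Sesn2*, which is also known as a target of Nrf2 and of the ER stress response, had no siRNA effect that passed over all 12 arrays without the block. It had 2.60, 2.78 and 2.36 in siControl and 2.78, 2.96 and 2.81 with siBach1-2 at day 0, and 2.75, 2.97 and 2.15 against 2.28, 2.14 and 2.04 at day 2. In siBach1-2 cells *Sesn2* fell by 0.69 with the day (adjusted p = 0.01), while in siControl cells the difference was 0.04 (95% interval -0.38 to 0.46). The siBach1-2 effect was 0.27 at day 0 (adjusted p = 0.38) and -0.47 at day 2 (-0.89 to -0.04, adjusted p = 0.14), and the groups overlapped at day 2 through siControl replicate 3, the lowest siControl array at 2.15. With the replicate block the effect at day 2 and the difference between days of -0.73 passed (adjusted p = 0.046 and 0.046), as they did without that siControl array (-0.70 and -0.97, adjusted p = 0.020 and 0.034). The estimates were -0.65 on the first slide, where the effect passed (adjusted p = 0.035), and -0.11 on the second. The third sestrin, *Sesn3*, chosen here after its values were seen, rose with the day in siControl cells by 0.84 and 0.47 on its 2 tested probes and in siBach1-2 cells by 1.34 and 0.58. The siBach1-2 effect on *Sesn3* at day 2 was 0.32 and 0.41 (adjusted p = 0.089 and 0.032), and at day 0 -0.18 and 0.30, which did not pass.

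**Figure D2:**
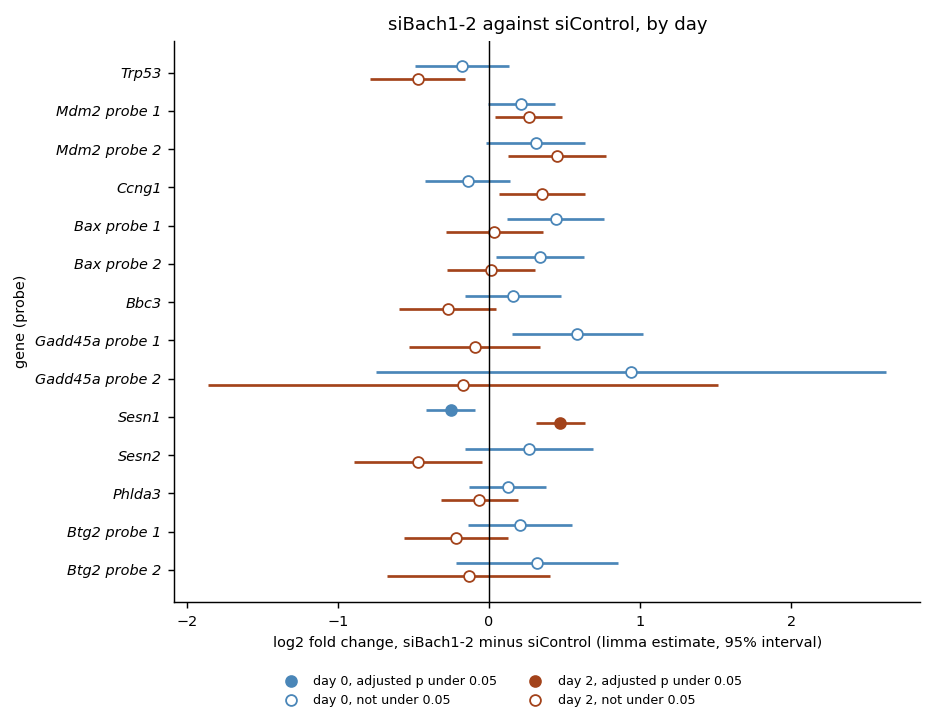
Log2 fold change of siBach1-2 against siControl (x axis, limma estimate with its 95% interval) for each probe at day 0 and day 2. Filled points passed at an adjusted p under 0.05: *Sesn1* at -0.25 at day 0 and at 0.47 at day 2.

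Counted over the 14 probes, the siRNA effect passed for 1 probe at day 0 and 1 at day 2, in both cases *Sesn1*, against 17.1% and 12% of all probes tested. At day 0, 8.80% of all probes were higher and 8.32% lower, and at day 2, 5.75% and 6.26%. Signals of the 2 siRNAs did not overlap for 4 of the 14 probes at each day, where 37.3% and 32.8% of all probes did not. At an unadjusted p under 0.05, 4 and 6 member probes were counted. The share of all probes at that threshold was not computed, so nothing is read from these counts. No member reached 2-fold, against 2.79% and 2.17% of all. The median effect over the 14 probes was 0.24 at day 0, with 11 estimates above 0, and -0.08 at day 2, against 0.09 and -0.01 over all probes. The difference between days passed for 1 probe, against 4.59% of all (2.39% positive, 2.20% negative), and for none at 2-fold, against 1.44%. With the replicate block 4 probes passed at day 0 (*Bax* on both probes and *Gadd45a* higher, *Sesn1* lower), 5 at day 2 (*Mdm2*, *Ccng1* and *Sesn1* higher, *Trp53* and *Sesn2* lower) and 3 for the difference (*Ccng1* and *Sesn1* positive, *Sesn2* negative), against 27.5%, 21.3% and 13.0% of all probes in the same fit. Replicate 3 stood on the higher side: at day 0 the siBach1-2 array of replicate 3 was the highest of its condition for 9 of the 13 member probes above background on all arrays, with a median deviation of 0.17 from the condition mean where that over all tested probes was 0.04. The siControl array of replicate 3 at day 0 was likewise the highest for 9 of 13, with 0.12 against 0.03.

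More members passed with the day than with the siRNA. The day comparisons use the same arrays as the siRNA comparisons, so the estimates are not independent. In siControl cells 11 of 14 probes passed, 6 higher and 5 lower, against 53.4% of all probes, 24.6% higher and 28.7% lower. *Bbc3*, *Gadd45a*, *Sesn1* and *Btg2* rose, *Trp53*, *Mdm2*, *Ccng1* and *Bax* fell, and *Sesn2* and *Phlda3* did neither. In siBach1-2 cells 9 of 14 passed, 4 higher and 5 lower, against 56.1% of all probes, 23.8% higher and 32.3% lower, with *Sesn2* now among the genes that fell and *Ccng1* among those that did not pass. With the replicate block 12 probes passed in siControl and 13 in siBach1-2 cells, against 62.7% and 64.0% of all, and *Ccng1* and *Phlda3* were then also lower in siBach1-2 cells, so that every member passed there on at least 1 probe. Of the probes that passed, 3 and 4 changed at least 2-fold, against 20.0% and 20.5% of all probes. The arrays of the 2 days did not overlap for 12 and 9 of 14 probes, against 61.9% and 61.3%. The median change was 0.00 in siControl and -0.20 in siBach1-2 cells, against 0.00 and -0.07 over all probes. Members thus passed in both directions under either siRNA.

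**Figure D3:**
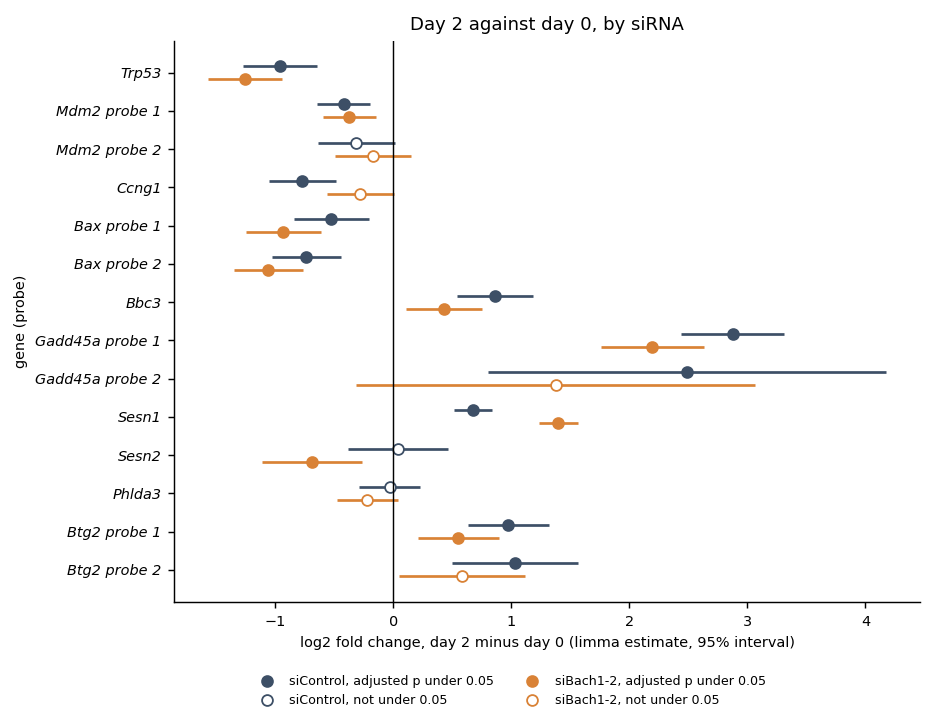
Log2 fold change of day 2 against day 0 (x axis, limma estimate with its 95% interval) for each probe in siControl and in siBach1-2 cells, filled where it passed. *Gadd45a*, *Btg2*, *Bbc3* and *Sesn1* lie above 0 and *Trp53*, *Bax* and *Mdm2* below, under both siRNAs.

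*Cdkn1a*, encoding the CDK inhibitor p21 and the best known p53 target, is no member but is the gene against which the others are usually read. Its brightest probe gave 4.42, 4.36 and 4.59 in siControl and 4.64, 4.67 and 4.78 with siBach1-2 at day 0, and 6.69, 6.72 and 6.84 against 6.30, 6.29 and 6.36 at day 2. This probe rose with the day by 2.29 in siControl and by 1.62 in siBach1-2 cells. The other 2 probes had 0.10 (adjusted p = 0.66) and 1.45 with the day in siControl cells, and 0.56 and 1.44 in siBach1-2 cells. The brightest probe was lower by 0.43 in siBach1-2 cells at day 2 (log2 fold change -0.43, adjusted p = 0.01). At day 0 its estimate was 0.24 (adjusted p = 0.083, and 0.019 with the block). The other 2 probes had siRNA effects of -0.35 and -0.04 at day 0 (adjusted p = 0.20 and 0.83), the arrays of the siRNAs not overlapping on the first of them, and 0.10 and -0.05 at day 2. The 3 probes of the gene thus disagree on the siRNA effect at both days and on the size of the rise with the day. The sign of the siRNA effect at day 0 depends on the probe.

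Other genes were read from 6 lists of p53 targets, regulators of p53 and senescence genes, 92 genes of which 87 were tested, with 1 probe a gene. The senescence genes are not all p53 targets or regulators. *Rprm*, *Perp*, *Cdkn2a* and *Cdkn2b* did not pass the filter, and *Tp53i3* had no probe. The lists were chosen by hand with earlier results of these data known, so shares above those of all genes are a description and no test of the pathway. At day 0, 11 of the 87 genes rose and 17 fell, 32.2% against 20.0% of all genes tested, and at day 2, 4 rose and 14 fell, 20.7% against 13.8%. With the replicate block 17 were higher and 19 lower at day 0, and 11 higher and 16 lower at day 2. In the same fit 27.5% and 21.3% of all probes passed, counted by probe and not by gene. With quantile normalization the split at day 2 was 9 higher and 9 lower. Shares over all genes were not computed with the block or with quantile normalization. The difference between days passed for 17, 7 positive and 10 negative, 19.5% against 5.81%. By list, at day 0 no gene of 8 passed for cell cycle arrest, while 2 rose and 6 fell of 18 for cell death, 1 rose and 1 fell of 11 for DNA repair, 2 rose and 5 fell of 15 for metabolism and antioxidant defence, 3 rose and 3 fell of 21 for regulators of p53, and 3 rose and 2 fell of 14 for senescence. At day 2 the counts were 0 and 3, 1 and 4, 1 and 2, 0 and 1, 0 and 2, and 2 and 2 in the same order. In siControl cells 25 of the 87 genes rose and 37 fell with the day, 71.3% against 57.7%, and in siBach1-2 cells 29 rose and 39 fell, 78.2% against 59.9%.

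The genes with the largest siRNA effects at day 0 came from cell death and senescence. *Triap1*, a small protein that inhibits apoptosis, fell from 3.83, 3.89 and 3.94 to 1.65, 1.53 and 1.51, a log2 fold change of -2.33 (SE 0.09, adjusted p = 8.4e-07), and was also lower at day 2 by -1.49 (adjusted p = 2.7e-05). *Ei24*, an endoplasmic reticulum protein induced by p53, fell from 1.69, 1.74 and 1.58 to 0.05, 0.07 and -0.23 (-1.71, adjusted p = 6e-06), and by 1.75 and 1.43 on its other 2 probes. *Pmaip1*, encoding the BH3-only protein Noxa, rose from 1.17, 1.16 and 1.02 to 2.34, 2.04 and 2.32 (1.12, adjusted p = 8.2e-05). None of these 3 overlapped between the siRNAs. *Bcl2*, an inhibitor of apoptosis, had -1.18 on its brighter probe (adjusted p = 0.0028) and -0.07 on its other. *Igfbp3*, which binds insulin-like growth factors, rose by 1.43 (adjusted p = 0.00023), and the cytokine *Il6* by 1.60 (adjusted p = 0.022), the latter from a dim signal that was above background on 11 of 12 arrays. The call of *Il6* was lost in 4 of 12 fits that left out 1 array.

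At day 2 the largest changes were those of *Mmp3*, *Trp53i11*, *Casp1*, *Triap1*, *Ptprv* and *Cxcl1*. *Trp53i11*, a p53-induced gene, fell from 0.64, 0.65 and 0.24 to -1.15, -1.02 and -1.98 (-1.90, adjusted p = 0.0013). *Casp1*, the protease that activates interleukin 1, rose from -1.05, -1.20 and -1.31 to 0.43, 0.34 and 0.55 (1.63, adjusted p = 0.00013). *Ptprv*, a phosphatase gene induced by p53, had -1.08 (adjusted p = 0.0038), and the chemokine *Cxcl1* had 0.92 (adjusted p = 0.0076). *Mmp3*, a matrix metalloproteinase, had 1.96 (adjusted p = 0.04) from signals above background on 2 of 3 siControl and all 3 siBach1-2 arrays; it passed in 5 of 12 fits that left out 1 array and was 1.27 on the first slide and 3.34 on the second.

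**Figure D4:**
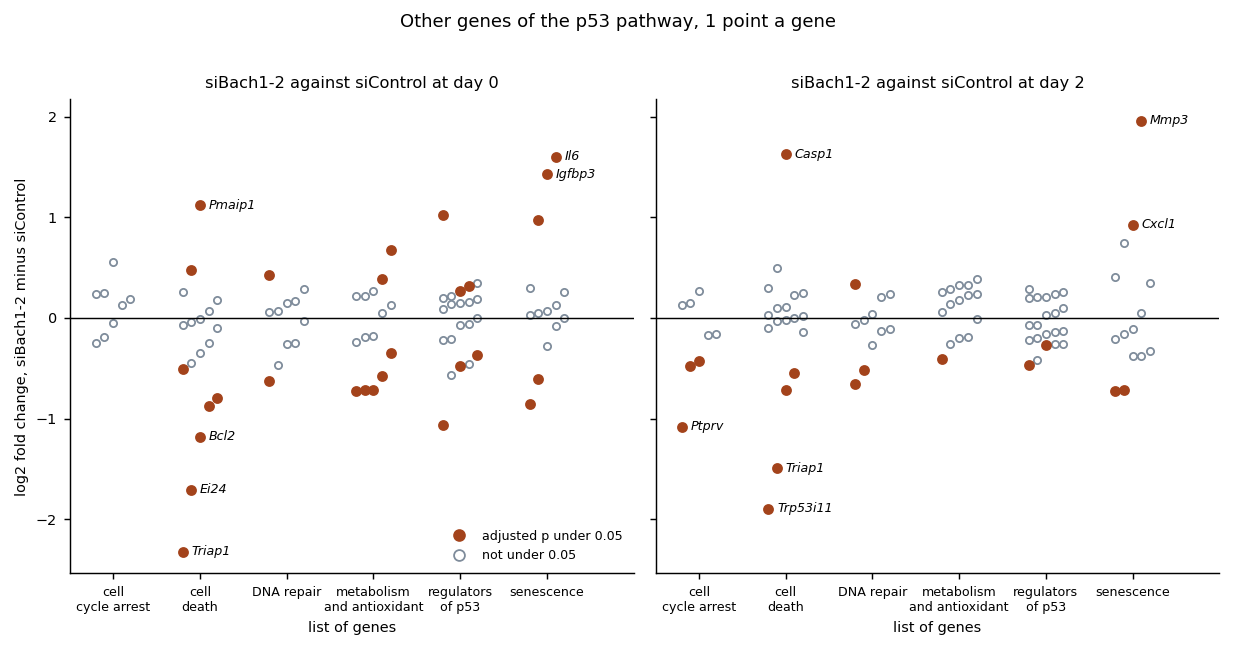
Log2 fold change of siBach1-2 against siControl (y axis) for the 87 other genes tested (p53 targets, regulators of p53 and senescence genes), 1 point a gene, by list on the x axis, at day 0 and day 2, filled where the adjusted p was under 0.05. At day 0 points on both sides of 0 passed in every list except cell cycle arrest, and *Triap1* is low at both days, at -2.33 and -1.49.

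With the day, in siControl cells, the largest changes of these lists were a fall of *Gtse1*, a p53-binding protein of the G2 phase, by 2.45, of *Pidd1*, a scaffold of the caspase-2 complex, by 2.39 and of the checkpoint kinase *Chek1* by 2.30, and a rise of *Pmaip1* by 2.42 and of *Cdkn1a*, on its brightest probe, by 2.29, with adjusted p of at most 3.6e-05. *Mmp3* was on no siControl array above background at day 0 and on 2 at day 2. Its mean was at least 1.12-fold higher at day 2 (measured means -6.74 and -4.48, adjusted p = 0.0044). The mean at day 2 includes the array that was not above background. The change was 3.09 on the first slide and 0.60 on the second.

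Over the 12 arrays the probes whose signal was most like that of *Trp53* by Pearson's r were those of *Hmgb1* (0.991), *Smarca5* (0.99), *Nap1l1* (0.9892), *Rwdd1* (0.9886) and *LOC102641638* (0.9886). *Hmgb1* had means of 5.45 and 5.30 at day 0 and 4.17 and 3.47 at day 2 in siControl and siBach1-2 cells, the same order of conditions as for *Trp53*, and encodes a chromatin protein. For *Gadd45a*, the member with the widest range of condition means (2.87), they were *Rcan2* (0.9971), *Fam13c* (0.9961), *Ypel3* on 2 probes (0.9954 and 0.9942) and *Pcmtd2* (0.9949). These correlations share the large difference between days, the arrays and the scaling, and are given as a description with no test.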

How the data were processed

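RNA of 12 C2C12 samples was hybridized to 12 one-colour Agilent arrays of 62976 spots. The authors scanned them, and deposited spot intensities after background subtraction, with flags; Feature Extraction is version 9.1 in the labels and 10.7.3.1 in the file headers. The authors also deposited normalized log2 values of 56745 probes, which were recomputed (75th percentile of the array, then median of the probe) to within 0.00034. The methods name GeneSpring and Student's t-test.

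Control spots and 76 to 110 outlier spots per array were removed, and no spot was saturated. Spots of a probe were averaged on the log2 scale and scaled by subtraction of the 75th percentile of each array. Of 56605 probes, 47.6% to 58.9% per array exceeded background. Probes were named by the deposited symbols; of 37153 RefSeq accessions 33465 were found in the reference (GRCm38.p6), 31840 with the same symbol. The 29664 probes that exceeded it in all 3 replicates of any condition entered a single fit of 4 conditions, with no block, in limma 3.58.1 (R 4.3.3), with tables made in Python 3.11 (pandas 2.3.3, scipy 1.17.1). Tested on simulated data, 61.5% of 200 probes changed 2-fold at day 2 were recovered, with 5 false calls. The simulated noise was independent between arrays, without the correlation by replicate number given below. Changes under 2-fold, as in the siRNA effects on the members, were not simulated, so these figures do not describe those calls.

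Residuals of arrays with the same replicate number correlated in all 18 pairs (0.142 to 0.595, limit 0.1). In the 36 pairs with different numbers r was -0.442 to 0.264, so the ranges overlap. Arrays of a replicate number also lay in the same row of a slide, so pairing and position cannot be told apart. The calls come from the fit without the block, and the blocked value is printed where it changes the call of a member probe. Replicates 1 and 2 were on 1 slide and replicate 3 on another. A condition always lay in the same column of the slide, so position and condition cannot be told apart.

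The members, the lists of other genes and the tests were chosen with earlier results of these data known. The genes named are the members, *Bach1*, *Hmox1* and *Cdkn1a*, and *Sesn3*, which was chosen after its values were seen. Of the lists, up to 6 genes were named for each siRNA comparison and for the day in siControl cells. These had the largest change among those that passed. Where several probes of a list gene were tested, the brightest was used. For *Trp53* and the member with the widest range, the 5 most correlated probes were named. Alternatives were quantile and normexp (offset 50) processing, the authors' values, other filters, replicate or slide blocks and slide 1 alone. Further ones were other fits, the methods' t-test, gene means and leaving out each array. Slide 2 alone, with 1 array per condition, gave effect sizes only.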

Additional observations from a re-analysis of the deposited data

Results flagged for a closer look

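The siBach1-2 effect differed between day 0 and day 2 by the test of the difference itself (day 2 effect minus day 0 effect, log2, limma) for 1 member and for 7 of the other genes named. Over all genes tested it passed for 5.81%. Of these 7, all but *Cdkn1a* were named for a large siRNA effect at day 0 or day 2 in the same data. Such a choice favours a difference between the days, so nothing is read from the count. *Sesn1* had a difference of 0.72 (adjusted p = 0.0089), from an effect of -0.25 at day 0 to 0.47 at day 2. Among the cell death genes, the effects on *Triap1* (0.83, adjusted p = 0.011) and *Ei24* (0.99, adjusted p = 0.0083) were less negative at day 2, though on the other probes of *Ei24* the difference did not pass (1.26 and 0.89, adjusted p = 0.054 and 0.088). The effect on *Bcl2* was -1.18 at day 0 and -0.03 at day 2 (1.16, adjusted p = 0.047, against -0.28 on its other probe, adjusted p = 0.37), that on *Pmaip1* was 1.12 and 0.11 (-1.01, adjusted p = 0.0089), and that on *Casp1* was 0.48 and 1.63 (1.15, adjusted p = 0.014). *Igfbp3* had 1.43 at day 0 and -0.38 at day 2 (-1.81, adjusted p = 0.0052). *Cdkn1a* had -0.67 on its brightest probe (adjusted p = 0.017) and 0.00 and 0.46 on its other probes, neither of which passed.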

How the results depend on the processing

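Over 14 member probes and 5 comparisons, 1620 values under the alternatives kept direction and, where tested, side of the threshold. Another 71 newly passed, 28 no longer passed and 22 changed sign. The remaining 16 moved in size, all of them on slide 2 alone, which has 1 array per condition and gives no test. The cause was not tested. For the siBach1-2 effect at day 0, 1 member probe passed (lower), against 0 with no filter on dim probes, with only the arrays of the comparison or at 2-fold, 2 with normexp (both higher, *Bax* and *Gadd45a*), 2 with the strict filter and 2 by the methods' t-test without adjustment, 3 with a trend and robust prior, and 4 with the replicate block and 4 with the slide block. At day 2, 1 passed, against 0 at 2-fold, 2 with normexp, the strict filter, the robust prior or gene means, 3 with quantile normalization, 4 on slide 1 alone or by the unadjusted t-test, and 5 with either block. *Trp53* was the second probe with normexp (-0.45, adjusted p = 0.044). For the difference between days, 1 passed, against 0 with no filter, on slide 1 alone or at 2-fold, and 3 with either block or by the unadjusted t-test. For the day, 11 passed in siControl and 9 in siBach1-2 cells, against 12 and 13 with either block, 12 and 12 on slide 1 alone, and 3 and 4 at 2-fold. Leaving out 1 array at a time gave 0 to 2, 1 to 3, 1 to 2, 10 to 12 and 8 to 11 in the same order. At day 2 the 3 came without siControl replicate 3. Of the 87 other genes, 28, 18 and 17 passed for day 0, day 2 and their difference. With the replicate block 36, 27 and 30 passed, where 27.5%, 21.3% and 13.0% of all probes did. With no filter 15, 7 and 1 of 91 genes passed, and the share of all genes was not computed. Without 1 array the counts in the same order were 16 to 30 (lowest without siControl day 0 replicate 2), 11 to 19 (lowest without siControl day 2 replicate 3 or siBach1-2 day 2 replicate 1) and 7 to 15 (lowest without siBach1-2 day 2 replicate 1). Signs turned only in values that did not pass. With quantile normalization *Phlda3* had -0.016 and 0.089 for the siRNA at day 0 and day 2, 0.063 and 0.17 for the day in siControl and siBach1-2 cells and 0.11 for the difference, and *Gadd45a* 0.0060 at day 2, while *Bax* had -0.017 at day 2 on slide 1 alone. Without 1 array, the siRNA effect at day 2 ranged from -0.047 to 0.086 and -0.10 to 0.098 for *Bax*, -0.21 to 0.11 and -0.56 to 0.14 for *Gadd45a* and -0.30 to 0.078 for the dimmer *Btg2* probe, the difference between days from -0.030 to 0.13 for the brighter *Mdm2* probe, and the day in siControl cells from -0.13 to 0.28 for *Sesn2* and -0.083 to 0.046 for *Phlda3*. The second *Gadd45a* probe, above background on 6 of 12 arrays, gives bounds only where a condition was dim.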
